A study of Homo sapiens with 4 samples.

Results

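Cytoplasmic ribosomal protein genes code for the proteins of the large and the small subunit of the cytoplasmic ribosome. They were taken as the protein-coding genes, by Ensembl identifier and symbol, named RPL or RPS with a number, and RPLP0, RPLP1, RPLP2 and RPSA, without the RPS6 kinases and without pseudogenes. Of 85 annotated genes that match these symbols, 80 were listed in all 4 tables and reached 1 CPM in some library, out of 24039 genes listed in all 4 tables. CPM is the number of reads of a gene scaled to a common library size. The 80 genes comprised 49 genes of the large subunit and 31 of the small subunit. Of the other 5, 4 were not listed in all tables, among them RPL39L and RPL10L, and RPL3L, the muscle paralog of RPL3, stayed below 1 CPM in each library.

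The ribosome holds one copy of most of its proteins, and cells keep the transcripts of these genes at high and similar levels. Many of the transcripts begin with a C followed by a run of pyrimidines, the 5′ terminal oligopyrimidine (5′ TOP) motif, through which mTORC1 signalling controls their translation. The proteins are assembled with ribosomal RNA in the nucleolus, and proliferating tumour cells such as bladder cancer cells need a steady supply of them. hnRNPK and PTBP1 are RNA-binding proteins that act in splicing, RNA stability and translation.

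RNA was sequenced from the established bladder cancer line UM-UC-3 after transfection with 75 nM siRNA and a lipid reagent. The control library came from cells given a negative control siRNA. The other 3 libraries came from cells given a mixture of 2 siRNAs against hnRNPK (si-hnRNPK), lncRNA-LBCS (si-lncRNA-LBCS) or PTBP1 (si-PTBP1). The study's methods give 48 h of transfection for control and si-hnRNPK. With 1 library per condition and 1 cell line, no difference below has a replicate check, and no p-value is given.

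The depth was 54301152 to 70232674 reads on listed genes, at which 3 reads correspond to 0.0427 to 0.0552 CPM. HNRNPK stood at 24.0% of control in si-hnRNPK, and PTBP1 stood at 32.0% of control in si-PTBP1. The gene matched by both siRNAs against lncRNA-LBCS was covered by 110 reads in control, 103 in the library labelled for it, 186 in si-hnRNPK and 214 in si-PTBP1, or 81.8%, 191% and 213% of the control CPM. It was thus lowest in the library labelled for it, with a small difference from control, and that library is called si-lncRNA-LBCS below as a label. Of 14 urothelial and epithelial markers, KRT7, KRT8 and KRT18 reached 1 CPM in each library, whereas the uroplakins listed, GATA3 and EPCAM stayed below 1 CPM. No leukocyte or erythroid marker reached 1 CPM, and of the 6 endothelial and fibroblast markers only COL1A1 did, at 2.25 CPM in si-PTBP1.

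The siRNAs are shown because an siRNA that matched a ribosomal protein transcript could lower it directly. Each is given as its sense strand, and the capitals mark the bases that pair with the seed of the guide strand (guide bases 2 to 8).
si-hnRNPK siRNA 1: ggguuguagagUGCAUAAatt
si-hnRNPK siRNA 2: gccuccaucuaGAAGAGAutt
si-lncRNA-LBCS siRNA 1: gcugcucauuuGUCUGAUctt
si-lncRNA-LBCS siRNA 2: ggugguagucaACACAAAutt
si-PTBP1 siRNA 1: gccucaacgucAAGUACAatt
si-PTBP1 siRNA 2: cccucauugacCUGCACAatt
control siRNA: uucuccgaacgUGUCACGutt

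None of the 7 siRNAs matched any of the 80 genes over its 19 paired bases in the GENCODE 29 transcripts. The longest run of identical bases between an siRNA and a representative transcript of a member was 11. The transcript of RPS20, which had the largest decrease of all members, shared runs of 7 and 9 bases with the si-PTBP1 siRNAs and held neither seed match. The capitals of si-PTBP1 siRNA 1 occurred in 12 members, with a median difference of −0.44 in log2(CPM + 1) against −0.33 in the other 68. Those of si-hnRNPK siRNA 2 occurred in 13 members, with a median of 0.21 against 0.09 in the other 67. For si-PTBP1 siRNA 2 the medians were −0.31 in 3 members and −0.34 in the rest. For si-hnRNPK siRNA 1 they were 0.002 in 2 members and 0.11 in the rest. The si-lncRNA-LBCS siRNAs 1 and 2 gave −0.001 in 6 members against −0.02, and −0.18 in 4 members against −0.01. The part of these short matches in the differences was not tested.

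Transcription starts are shown for genes to which the results below return, as RefSeq gives them on GRCh38.p14. Each window runs from 15 bases before the annotated first base to the 15 transcribed bases, and the capitals mark a C at the first base followed by 4 pyrimidines.
RPS6 (chr9:19380222-19380251, minus strand): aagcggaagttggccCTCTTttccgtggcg
RPLP0 (chr12:120201097-120201126, minus strand): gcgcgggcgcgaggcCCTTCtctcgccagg
RPS16 (chr19:39435935-39435964, minus strand): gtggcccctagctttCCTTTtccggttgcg
RPS9 (chr19:54200843-54200872, plus strand): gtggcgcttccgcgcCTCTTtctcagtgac
RPL13A (chr19:49487593-49487622, plus strand): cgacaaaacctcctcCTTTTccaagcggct
RPL39 (chrX:119791616-119791645, minus strand): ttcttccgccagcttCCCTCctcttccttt
RPL22L1 (chr3:170870181-170870210, minus strand): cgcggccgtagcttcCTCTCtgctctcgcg
RPL3 (chr22:39319609-39319638, minus strand): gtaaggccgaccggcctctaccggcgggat
RPL10A (chr6:35468386-35468415, plus strand): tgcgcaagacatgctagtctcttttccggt
RPL26L1 (chr5:172958865-172958894, plus strand): ggcggggcggcggccacaaacccgcaggca

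A promoter entry was matched for 66 of the 80 members, and 47 of these 66 (71.2%) had a C followed by 4 pyrimidines at an annotated first base. The share was 5.14% of all 27305 genes with an entry. Of the 4 paralogs that were measured, RPL22L1 had this start, and RPL7L1, RPS27L and RPL26L1 did not. In the 300-base windows from 250 bases before to 50 bases after the start, read on both strands, the letters CCGGAAG occurred in 36.4% of members and 12.2% of all genes. GCCATCTT occurred in 10.6% of members and 3.52% of all genes, and TATAAA in 9.09% and 13.99%. A match is a description of these letters and not a binding site.

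In the control library the 80 genes took 10.0% of all reads. Their level ran from 12.7 CPM (RPL36A) to 6364 CPM (RPL4, which lines the peptide exit tunnel), with a median of 1069 CPM, and 75 of the 80 stood at 100 CPM or more. The smallest number of reads behind any member in any library was 775. Counting intervals were therefore narrow, and they cover counting error only.

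Per kilobase of annotated transcript, the middle 50% of the members lay between 792 and 2149 CPM per kb in control, around a median of 1434. The highest were RPL41 (4273 CPM per kb), whose protein is the smallest of the ribosome, RPS20 (3346), RPS27 (3291), RPL35 (3150) and RPL13A (2966). The lowest were RPS27L (13.0 CPM per kb), RPL22L1 (20.1), RPL36A (29.7), RPL26L1 (38.3) and RPL17 (38.4). These 5 comprised 3 paralogs and 2 genes, RPL36A and RPL17, that overlap an annotated read-through gene on the same strand. The annotated transcript of some members is far longer than its coding part, up to 7686 bases for RPL37, which lowers their value per kb. RPS16, a protein of the small-subunit decoding region, stood at 191 CPM per kb, below 71 of the other 79 members.

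**Figure D1:**
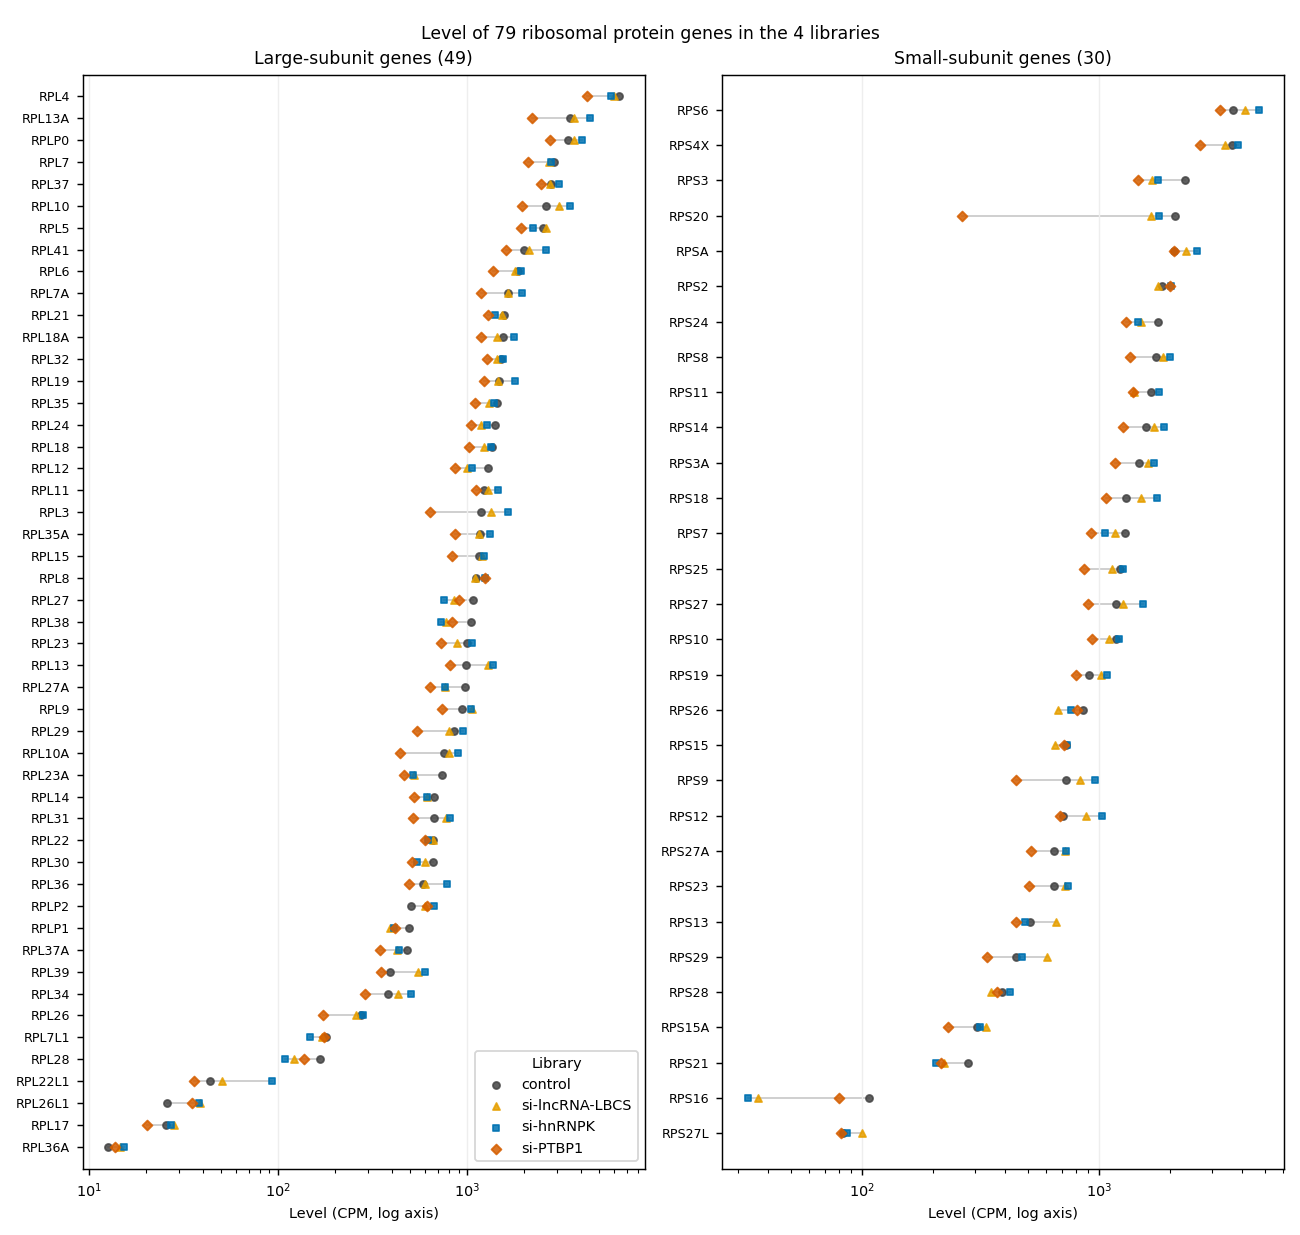
Level of 79 of the 80 ribosomal protein genes in CPM (log axis) with 1 point for each of the 4 libraries, in separate panels for 49 large-subunit and 30 small-subunit genes. The si-PTBP1 point is the lowest of the 4 for 64 of these genes, RPS20 in si-PTBP1 stands apart at 265 CPM, and RPS16 falls below 40 CPM in 2 libraries.

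The share of reads taken by the 80 genes differed between the libraries. It was 10.0% in control, 10.8% in si-hnRNPK, 9.90% in si-lncRNA-LBCS and 7.70% in si-PTBP1. The summed level relative to control was 1.08 in si-hnRNPK (95% counting interval 1.07 to 1.08), 0.990 in si-lncRNA-LBCS (0.989 to 0.991) and 0.770 in si-PTBP1 (0.769 to 0.771). The lower sum in si-PTBP1 held for both subunits, at 0.762 of control for the large subunit and 0.783 for the small subunit, and it was 0.783 without RPS20.

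The members were counted by their highest and lowest library, and the same counts were not made over all genes. The si-hnRNPK library was the highest of the 4 libraries for 47 members, control for 25, si-lncRNA-LBCS for 8 and si-PTBP1 for 0. The si-PTBP1 library was the lowest for 65 members, si-lncRNA-LBCS and si-hnRNPK for 6 each, and control for 3. Of all genes, 36.5% were lower than control in si-PTBP1 and 58.4% in si-hnRNPK. Whether these orders are particular to the members was not tested. The 3 comparisons share the control library, so 48 members that were higher in si-hnRNPK and lower in si-PTBP1 than control are given as a count only. The same holds for 25 members that were lower than control in all 3 comparisons and 3 that were higher in all 3.

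RPLP0, the base of the acidic stalk that recruits elongation factors, stood at 3405 CPM in control, 3649 in si-lncRNA-LBCS, 4038 in si-hnRNPK and 2751 in si-PTBP1. RPS6, whose protein is phosphorylated by the S6 kinases downstream of mTORC1, stood at 3692, 4147, 4730 and 3240 CPM in the same order. Both genes were thus highest in si-hnRNPK and lowest in si-PTBP1. Their differences from control did not pass 2-fold in any library, and ranged from −0.31 to 0.25 for RPLP0 and from −0.19 to 0.36 for RPS6 in log2(CPM + 1). This scale is used for all differences below, where 1 is a 2-fold change, which was the threshold for a call.

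**Figure D2:**
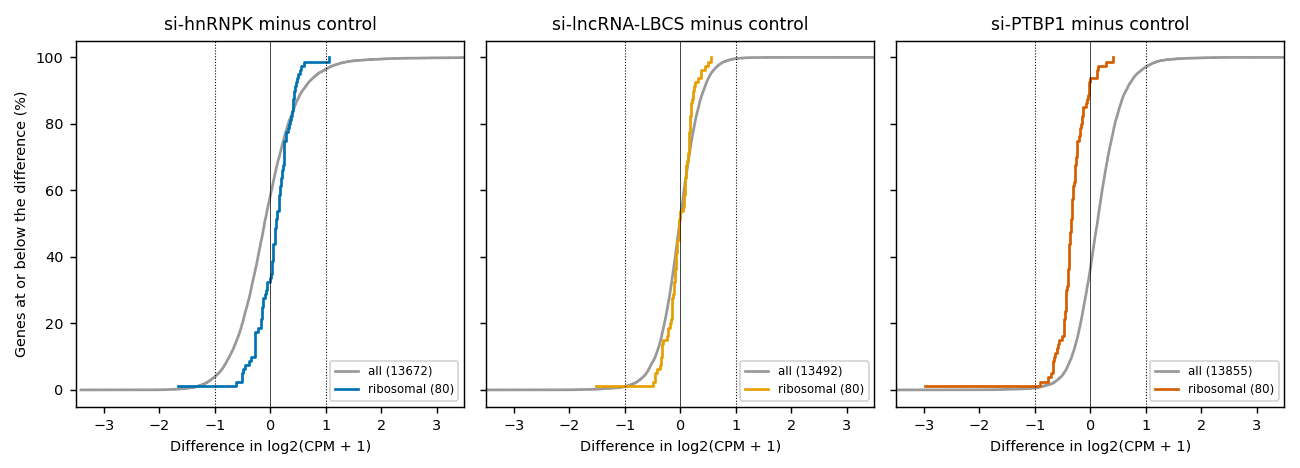
Cumulative share of genes (%) against the difference from control in log2(CPM + 1), for all genes tested (grey) and the 80 ribosomal protein genes (colour), in 1 panel per targeting siRNA library, with dotted lines at the 2-fold threshold. The ribosomal protein curve lies left of all genes in si-PTBP1 (medians −0.34 and 0.12), lies mainly to the right in si-hnRNPK (0.11 and −0.11) and runs close to all genes in si-lncRNA-LBCS (−0.02 and −0.01).

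After PTBP1 knockdown, the ribosomal protein genes were lower as a group, mostly by less than 2-fold. Of the 80 members, 75 were lower than control and 5 were higher, with a median difference of −0.34 against 0.12 over all 13855 genes tested. Among the 1863 genes at 100 CPM or more in control, the median was −0.06, and 1070 (57.4%) were lower. The share lower was 93.8% of the members and 36.5% of all genes. RPS20 was the only member past 2-fold (1 of 80; 0.613% of all genes were called lower and 2.92% higher). RPL3 also passed it, at −1.12, when the reference was the geometric mean of the other 3 libraries, and at −1.03 with median-of-ratios scaling. At 1.5-fold, 10 members were lower (12.5%, against 3.12% of all genes) and 0 were higher (12.1% of all genes). Past a smaller difference of 0.32, 46 members were lower (57.5%, against 10.7% of all genes) and 1 was higher (29.5% of all genes). Genes at 100 CPM or more in control, where most members lie, gave a smaller contrast. Of these genes, 5.96% were lower and 3.65% higher at 1.5-fold, and 21.3% and 13.2% past 0.32.

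RPS20 (ENSG00000008988; chromosome 8, 56067295 to 56074581 on GRCh38, minus strand) codes for a protein of the head of the small subunit. It was at 2094 CPM in control, 1656 CPM in si-lncRNA-LBCS, 1798 CPM in si-hnRNPK and 265 CPM in si-PTBP1. The 3 other libraries lay within 1.5-fold of each other, and si-PTBP1 stood far below all of them. RPS20 fell by 2.98 on the log2 scale (95% counting interval −3.00 to −2.95), to 12.7% of control, and had the third-lowest difference of the 13855 genes tested. The 6 listed RPS20 pseudogenes held 3.36 CPM in control and 3.30 CPM in si-PTBP1.

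The next lowest members in si-PTBP1 came from both subunits. RPL3, which lies close to the peptidyl transferase centre, was at 1185 CPM in control and 633 CPM in si-PTBP1, a difference of −0.90. It was at 1335 CPM in si-lncRNA-LBCS and 1650 CPM in si-hnRNPK, so si-PTBP1 stood below all other libraries. RPL10A, a protein of the L1 stalk, differed by −0.77, from 758 CPM to 444 CPM. RPS9 differed by −0.70, from 727 CPM to 445 CPM. RPL13A, known also for a translation-silencing role outside the ribosome, differed by −0.67, from 3503 CPM to 2197 CPM. RPL26 differed by −0.67 (274 to 172 CPM), and its 4 other neighbours past 1.5-fold, RPL23A, RPS3, RPL29 and RPL27A, ranged from −0.67 to −0.61. RPL23A, RPS3 and RPL27A were highest in control. They also differed by −0.51, −0.38 and −0.35 in si-hnRNPK and by −0.50, −0.46 and −0.35 in si-lncRNA-LBCS. Against the geometric mean of the other 3 libraries they differed by −0.33, −0.38 and −0.37 in si-PTBP1. On that reference RPL26 and RPL29 differed by −0.65 and −0.67, and RPL10A, RPS9 and RPL13A by −0.88, −0.90 and −0.81.

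The 5 members higher in si-PTBP1 than in control differed by 0.11 to 0.42. RPL26L1, a paralog of RPL26, was highest at 26.0 CPM in control and 35.0 CPM in si-PTBP1. RPLP2, an acidic stalk protein, differed by 0.29, from 503 CPM to 614 CPM, whereas its stalk partners RPLP0 and RPLP1 differed by −0.31 and −0.25. The opposite signs of RPLP2 and RPLP1 were not particular to si-PTBP1. RPLP2 differed by 0.41 in si-hnRNPK and 0.26 in si-lncRNA-LBCS, and RPLP1 by −0.27 and −0.34. RPL8, RPS2 and RPL36A differed by 0.15, 0.12 and 0.11 in si-PTBP1. RPL26L1, RPLP2 and RPL36A had their lowest level of the 4 libraries in control, so they were higher in every comparison. The counting interval of RPL36A in si-PTBP1, which had the fewest reads in control, included 0 (−0.02 to 0.25). RPSA, the laminin-receptor protein of the small subunit, was the member nearest to 0 at −0.004.

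After hnRNPK knockdown, the members were on average slightly higher relative to control, with a spread in both directions. Of the 80 members, 53 were higher and 27 lower, with a median difference of 0.11 against −0.11 over all 13672 genes. Lower genes made up 33.8% of the members, 58.4% of all genes and 64.8% of genes at 100 CPM or more in control. RPL22L1 was the only member past 2-fold upward and RPS16 the only one downward, beside 3.55% of all genes called higher and 3.93% called lower. At 1.5-fold, 2 members were higher (9.89% of all genes) and 2 were lower (15.8% of all genes). Past 0.32, 18 were higher (22.5%, against 20% of all genes) and 8 were lower (10%, against 32.3% of all genes). Of genes at 100 CPM or more in control, 5.21% were higher and 19.1% lower at 1.5-fold, and 13.5% and 36% past 0.32.

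RPL22L1 (ENSG00000163584; chromosome 3, 170864875 to 170870483 on GRCh38, minus strand) is a paralog of RPL22 with roles in splicing and blood development. It was at 44.0 CPM in control, 50.6 CPM in si-lncRNA-LBCS, 93.2 CPM in si-hnRNPK and 36.1 CPM in si-PTBP1. Its difference of 1.07 in si-hnRNPK had a counting interval of 1.00 to 1.13, whose lower end lies at the threshold. RPL22 itself was at 660 CPM in control and 619 CPM in si-hnRNPK, a difference of −0.09.

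RPS16 (ENSG00000105193; chromosome 19, 39433207 to 39435948 on GRCh38, minus strand) was at 107 CPM in control, 36.5 CPM in si-lncRNA-LBCS, 33.0 CPM in si-hnRNPK and 80.0 CPM in si-PTBP1. The libraries labelled si-lncRNA-LBCS and si-hnRNPK lay close together, below the other 2 libraries. RPS16 fell by 1.67 in si-hnRNPK (counting interval −1.74 to −1.59), to 30.8% of control, and ranked 32nd from the lowest of 13672 genes. Its level is low for a ribosomal protein gene, and its 1 listed pseudogene held 0.684 CPM in control.

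The other low members in si-hnRNPK were RPL28 (−0.62, from 167 to 109 CPM), RPL23A (−0.51), RPL38 (−0.51), RPL27 (−0.49) and RPS21 (−0.46). The other high members were RPL39, a small protein of the exit tunnel (0.61, from 390 to 596 CPM), RPS12 (0.55), RPL26L1 (0.54) and RPL3 (0.48). RPL3 thus had a high value in si-hnRNPK and the second-lowest difference in si-PTBP1, with the control library shared by both.

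**Figure D3:**
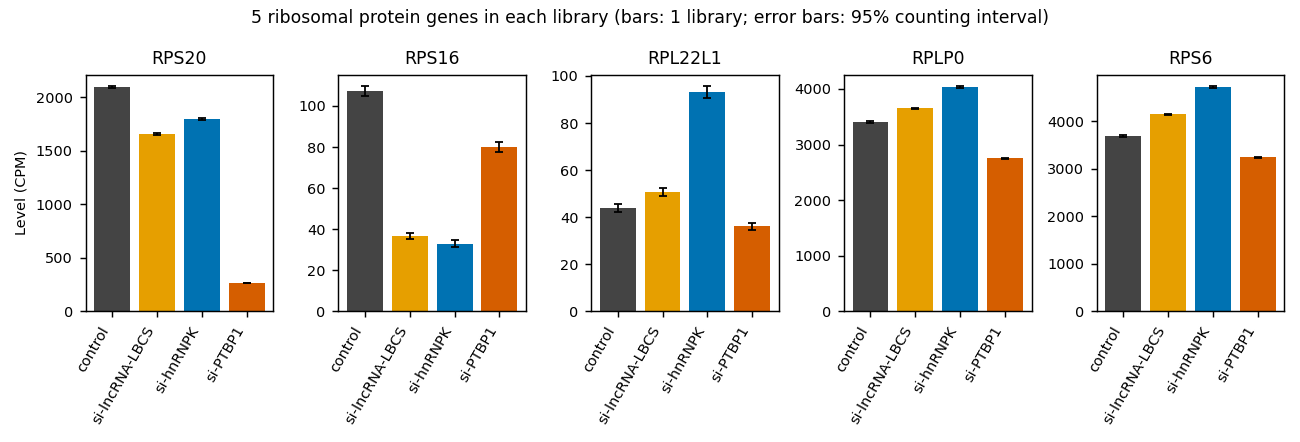
Level in CPM of RPS20, RPS16, RPL22L1, RPLP0 and RPS6 in the 4 libraries, with 1 bar per library from 0 and error bars for the 95% counting interval of its reads. RPS20 is low in si-PTBP1 alone (265 CPM), RPS16 in si-lncRNA-LBCS and si-hnRNPK (36.5 and 33.0 CPM), and RPL22L1 is high in si-hnRNPK alone (93.2 CPM).

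The library labelled si-lncRNA-LBCS held the members near control, with 37 higher and 43 lower, and a median difference of −0.02 against −0.01 over all 13492 genes. Lower genes made up 53.8% of the members, 51.8% of all genes and 59.3% of genes at 100 CPM or more in control. RPS16 was the only member past 2-fold and past 1.5-fold (1.01% of all genes were lower by 2-fold and 5.74% by 1.5-fold). It fell by 1.53 (counting interval −1.59 to −1.46), to 34.1% of control. With the geometric mean of the other 3 libraries as the reference, among them si-hnRNPK with its similarly low level, the difference was −0.83 and no member was called lower. No member was higher by 2-fold (0.378% of all genes) or by 1.5-fold (4.14% of all genes). Past 0.32, 6 members were higher (7.5%, against 15.4% of all genes) and 11 were lower (13.8%, against 17.3% of all genes). Of genes at 100 CPM or more in control, 8.7% were higher and 16.9% lower past 0.32.

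The lowest members after RPS16 were RPL23A (−0.50), RPS3 (−0.46), RPL28 (−0.45), RPL38 (−0.42) and RPL12 (−0.36). The highest were RPL26L1 (0.56, from 26.0 to 38.8 CPM), RPL39 (0.50), RPS29 (0.44), RPL13 (0.38), RPS13 (0.37) and RPS12 (0.32).

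The members were then grouped by role. Because 75 of the 80 members were lower in si-PTBP1, a group that is wholly lower there does not stand apart. The 18 measured genes mutated in Diamond-Blackfan anaemia, a failure of red cell production, were all lower in si-PTBP1, from −0.67 to −0.06. Their median of −0.39 there was near the −0.34 of all members. In si-hnRNPK these 18 genes ranged from −0.49 to 0.37. RPL5 and RPL11, which form the 5S ribonucleoprotein that restrains MDM2, differed by −0.38 and −0.13 in si-PTBP1 and by −0.16 and 0.25 in si-hnRNPK. Of the exit tunnel genes RPL4, RPL17 and RPL39, all were lower in si-PTBP1 (−0.57 to −0.15). Of the genes at the mRNA entry and exit sites (RPS2, RPS3, RPS26 and RPS28), the range in si-PTBP1 was −0.66 to 0.12. RPS27A, made as a fusion with ubiquitin, differed by −0.31 in si-PTBP1 and 0.17 in si-hnRNPK.

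Among the paralogs, the differences in si-PTBP1 were 0.42 for RPL26L1, −0.03 for RPL7L1 and RPS27L, and −0.28 for RPL22L1. Their canonical partners RPL26, RPL7, RPS27 and RPL22 differed by −0.67, −0.45, −0.39 and −0.14. Each of the first 3 partners was lower than its paralog relative to control, and RPL22 was not. In si-hnRNPK, RPL7 (−0.05) and RPS27 (0.37) were instead higher than RPL7L1 (−0.28) and RPS27L (0.05). RPL26 (0.03) and RPL22 (−0.09) were lower there than RPL26L1 (0.54) and RPL22L1 (1.07). In si-lncRNA-LBCS each partner was lower than its paralog, RPL26 at −0.08 against 0.56 and RPL7 at −0.08 against −0.07. RPL26L1 was lowest in control, so its gap to RPL26 was not particular to si-PTBP1. RPS4X, the X-linked copy of its pair, differed by −0.44 in si-PTBP1 and 0.09 in si-hnRNPK.

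Members with and without the annotated 5′ TOP start were at similar medians in si-PTBP1, at −0.34 for 47 genes and −0.31 for 19 genes. In si-hnRNPK the medians were 0.21 and 0.09, and in si-lncRNA-LBCS 0.07 and −0.05. This split rests on the exact annotated first base. RPL19, for example, counts as without the start although its annotated first base lies inside a run of pyrimidines. The split may thus not separate transcripts with and without the motif, and no effect of the motif is read from it. The 28 members that host snoRNA genes in their introns had a median of −0.37 in si-PTBP1 against −0.34 for the 52 that host none, and 0.12 against 0.09 in si-hnRNPK. Across the 80 members, which share their libraries, Spearman's rho of the difference in si-PTBP1 was −0.25 with the control CPM, −0.03 with transcript length and −0.14 with the number of exons. The corresponding values in si-hnRNPK were 0.03, −0.02 and 0.002, and in si-lncRNA-LBCS −0.16, 0.02 and 0.01. The control CPM is itself part of each difference, so its rho does not measure a separate relation and none is read from it.

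Other gene lists of the pathway were compared in the same way. A list of ribosomal protein and ribosome-related genes outside the symbol rule held 5 genes, among them FAU, RPL36AL, RACK1 and RSL24D1. All were lower in si-PTBP1, with a median of −0.43, and none passed 2-fold. RACK1, the scaffold protein of the small subunit, was at 3518 CPM in control and 2566 CPM in si-PTBP1. Of 19 measured elongation factors and other 5′ TOP genes, 18 were lower in si-PTBP1, with a median of −0.40, and none passed 2-fold in any library. The lowest were GAS5, a snoRNA host gene (−0.66), and EIF4B, a helicase cofactor (−0.61), and the highest were EIF3F (0.04) and EEF1D (−0.07).

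In si-hnRNPK the same 19 genes had a median of 0.05, from −0.85 for PABPC1, the poly(A)-binding protein, to 0.79 for EIF4A2, and EEF2 differed by 0.53, from 2829 to 4097 CPM. In si-lncRNA-LBCS the median was 0.03, with PABPC1 lowest at −0.79 and EIF3F highest at 0.36.

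Of 66 measured ribosome biogenesis genes, 1 passed 2-fold, namely DDX21 in si-hnRNPK. DDX21, a nucleolar helicase, fell by 1.23, from 548 to 233 CPM, followed by UTP20 at −0.98, while NIP7 (0.58) and NOL6 (0.29) were highest. The medians of the list were −0.19 in si-hnRNPK, −0.23 in si-lncRNA-LBCS and −0.24 in si-PTBP1, with 51, 58 and 53 genes lower. Over all genes, 58.4%, 51.8% and 36.5% were lower in the same order. The lowest in si-lncRNA-LBCS were NCL, which codes for nucleolin (−0.76), and LYAR (−0.71), and in si-PTBP1 EBNA1BP2 (−0.60) and RRS1 (−0.59).

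Of 14 genes of the RNA polymerase I machinery, which makes ribosomal RNA, none passed 2-fold, and the medians were −0.23, −0.12 and −0.08 for si-hnRNPK, for the library labelled si-lncRNA-LBCS and for si-PTBP1. NOLC1 was the highest in si-hnRNPK (0.45), si-lncRNA-LBCS (0.24) and si-PTBP1 (0.56). Of 13 mTORC1 and 5′ TOP regulators, none passed 2-fold, and the medians were −0.41, −0.28 and 0.16. MTOR itself was lowest in si-PTBP1 at −0.61 (172 to 112 CPM), followed by EIF4EBP1 at −0.56. In si-hnRNPK EIF4EBP2 (−0.92) and RPS6KB1 (−0.85), which codes for an S6 kinase, were lowest.

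The 75 measured mitochondrial ribosomal protein genes, whose products serve the mitochondrial ribosome, had medians of −0.20 in si-hnRNPK, −0.05 in si-lncRNA-LBCS and −0.12 in si-PTBP1. The si-PTBP1 median lies between that of all genes (0.12) and that of the cytoplasmic members (−0.34). MRPL17 fell by 1.77 in si-PTBP1, from 88.2 to 25.1 CPM, and was the only one of the 75 past 2-fold in any library. The 49 translation initiation factor genes had medians of −0.14, −0.07 and −0.09. Past 2-fold, 1 was higher (3.55% of all genes) and 1 lower (3.93% of all genes) in si-hnRNPK, and none in the other comparisons.

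**Figure D4:**
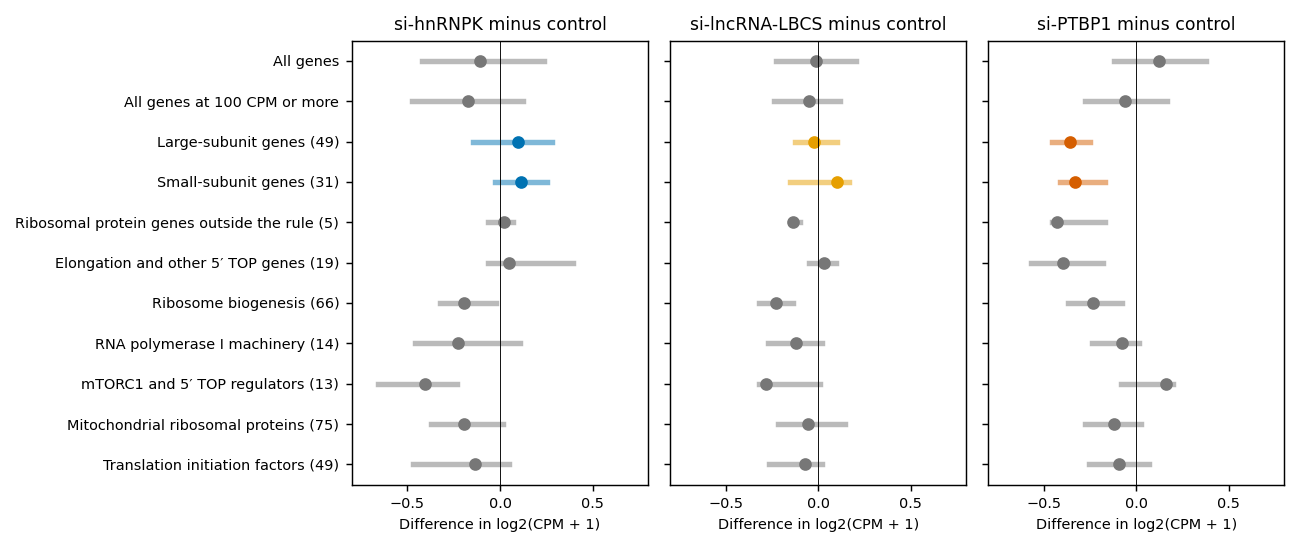
Median (point) and middle 50% (bar) of the difference from control in log2(CPM + 1) for all genes, genes at 100 CPM or more in control, the large-subunit and small-subunit genes (colour) and the other lists, with the number of genes in parentheses, in 1 panel per targeting siRNA library. In si-PTBP1 both subunits (−0.36 and −0.33) and the elongation and other 5′ TOP genes (−0.40) lie left of all genes (0.12).

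The scale of the libraries bears on these medians. Relative to control, the size factor by median of ratios was −0.11 in si-hnRNPK, −0.01 in si-lncRNA-LBCS and 0.13 in si-PTBP1 on the log2 scale. Relative to the median of all genes, the members stood at 0.21 in si-hnRNPK, −0.01 in si-lncRNA-LBCS and −0.47 in si-PTBP1. In si-hnRNPK and si-PTBP1 the median of all genes had the opposite sign to that of the members. Subtracting it could thus only widen the difference, and it is no check on the direction. Genes at 100 CPM or more in control had medians of −0.17, −0.05 and −0.06. The 3 genes with most reads took 11.2% of reads in control and 12.5% to 13.6% in the others, and with CPM recomputed without them the median of the members was 0.14 in si-hnRNPK, 0.011 in si-lncRNA-LBCS and −0.32 in si-PTBP1. In bulk RNA, a lower level per cell and fewer cells with the transcript cannot be told apart.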

How the data were processed

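RNA-seq of 4 UM-UC-3 libraries, 1 per condition, was used. CPM values by Ensembl identifier were deposited by the authors, in a separate table for each library. The submitters' processing notes name hg19, and the aligner, counter, strand setting and annotation are not given in the sources used here. CPM values were whole multiples of 1 read for 100% of genes with reads (tolerance 0.01 read), which gave the reads. Genes without reads carry a placeholder, read as 0. Differences were taken in log2(CPM + 1), which understates the change of low genes, over genes that reached 1 CPM in either library compared, with a threshold of 2-fold. Intervals are 95% exact Clopper-Pearson intervals of reads and cover counting error only. Genes, transcripts and pseudogenes came from GENCODE 29 on GRCh38 by identifier (24024 to 24449 symbols matched per table), and starts from RefSeq on GRCh38.p14. Length is that of the shortest annotated transcript with the main coding sequence.

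The members and lists were chosen with earlier results of these data known. Genes named are RPLP0 and RPS6, the 6 largest and 6 smallest differences per comparison, members past the threshold, the 5 highest and 5 lowest per kb, paralogs with partners, the role groups and, of other lists, genes among the 2 largest and 2 smallest differences. Some genes that this rule covers are not reported here. Scripts were tested on simulated data. Tools were biopython 1.88, matplotlib 3.10.9, scipy 1.17.1, pandas 2.3.3, numpy 2.4.6 and Python 3.11.15.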

Additional observations from a re-analysis of the deposited data

How the results depend on the processing

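No paired analysis was possible because each condition has 1 library and the labels give no replicate numbers. The cause of each shift below was not tested unless the setting itself shows it. For the members of the small and large subunit together, the counts higher and lower past the threshold in si-hnRNPK were 2 and 2 at 1.5-fold and 18 and 8 past 0.32 (log2). In si-lncRNA-LBCS, 6 were higher and 11 lower past 0.32 (log2), and 0 were lower against the geometric mean of the other 3 libraries (RPS16 then differed by −0.83). In si-PTBP1, 10 were lower at 1.5-fold, 1 was higher and 46 lower past 0.32 (log2), and 2 were lower both with median-of-ratios scaling (RPS20 at −3.10 and RPL3 at −1.03) and with the geometric mean as reference (RPS20 at −2.79 and RPL3 at −1.12). The median of the members in si-hnRNPK was 0.22 both with median-of-ratios scaling and with the geometric mean as reference, and 0.14 without the 3 genes with most reads, a setting added after the data were seen. In si-PTBP1 it was −0.47 under median-of-ratios scaling, −0.38 with CPM recomputed without the members and −0.37 against the geometric mean. In si-lncRNA-LBCS it changed sign, to 0.067 against the geometric mean and 0.011 without the 3 genes. The summed level in si-hnRNPK was 1.16 under median-of-ratios scaling, 1.09 without the members, 1.18 against the geometric mean and 1.10 without the 3 genes. In si-PTBP1 these values were 0.705, 0.750, 0.754 and 0.781. In si-lncRNA-LBCS they were 0.996, 0.989, 1.05 and 1.01, the last pair changing sign. Over all genes, the counts higher and lower in si-hnRNPK were 790 and 995 with a pseudocount of 0.1, 1352 and 2165 at 1.5-fold, 2739 and 4412 past 0.32 (log2) and 317 and 356 against the geometric mean. In si-lncRNA-LBCS they were 165 and 353, 559 and 774, and 2077 and 2339 for the first 3 settings, and 6 were higher against the geometric mean. In si-PTBP1 they were 793 and 173, 1673 and 432, and 4085 and 1477, with 256 and 132 under median-of-ratios scaling and 234 higher against the geometric mean. The other settings (no filter, a filter of 5 CPM, an added exact binomial test of reads, which compares libraries, and added pseudogene reads) moved no count by over 1.5 times. Of 126 repeats for single members past 1.5-fold and for RPLP0 and RPS6, 0 changed sign. The members past 1.5-fold were picked for a large difference in the same data. The rescalings are small beside that difference, so this count is no check on those members. Single cultures leave the spread between cultures unknown.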
